A study of Homo sapiens with 9 samples.

Results

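The deposited Ago-HITS-CLIP list for the miR-342-3p mimic over the negative control mimic in MDA-MB-231HM cells holds 3450 peaks, and 702 of them (20.3%, 95% CI 19.04 to 21.72%) lay in a 3′UTR without a site for the miR-342-3p seed and without a long GU run. The rule uses location and sequence and not the score. The midpoint of the peak had to lie in an annotated 3′UTR of a protein-coding gene on the strand of the peak. Where transcripts differed, the 3′UTR had precedence over coding exons. The 50 nt on each side of the summit, a window of 101 nt, had to hold no 8mer (GUGUGAGA) and neither 7mer of the miR-342-3p seed (GUGUGAG for bases 2 to 8, and for bases 2 to 7 with an A after them UGUGAGA) and no run of alternating G and U of 10 nt or more. Of the 1163 miR-342-3p peaks in 3′UTRs, 60.4% met this rule, while 275 had a seed site and 186 had a GU run without a seed site. The peaks without either are called seedless 3′UTR peaks below, and they lay in 574 genes. Seedless here means without an 8mer or 7mer site, and shorter or imperfect matches to the seed could remain. A match of 6 nt to the seed region was in the windows of 239 of the 702 (34.0%).

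MDA-MB-231HM is a highly metastatic variant of the human triple-negative breast cancer line MDA-MB-231. Wild-type cells were transfected for 48 h with 20 nM of a mimic of miR-342-3p, a mimic of miR-342-5p or a negative control, with 3 replicates of each and thus 9 libraries, and Ago2 was crosslinked to its RNA and immunoprecipitated. A mimic is an added synthetic miRNA, so its level in the cell is not that of the miRNA the cell makes. The deposited data are 2 lists that merge the replicates, with 1 score per peak and 8460 peaks in all. Per the study's methods the score stands for reads above background, and it starts at 5 in the lists. No value per library was analysed. Sequencing depth is therefore unknown, there is no error between replicates, and each test and interval on numbers of peaks below covers counting error only. Neighbouring peaks in a gene are not independent. Of 7 markers of mesenchymal breast cancer cells, 4 had a peak in either list (CD44, AXL, MSN and EGFR), and of 7 markers of luminal or hormone receptor positive cells, 1 did (ERBB2). A peak is no measure of a transcript's level.

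Argonaute proteins hold a miRNA and use it to find mRNAs, mostly through the seed near its 5′ end, and sites in 3′UTRs are the ones best known to lower mRNA and protein levels. Binding without a full seed match is also known. It can rest on a part of the seed, on a match shifted along it, on pairing with a mismatch or a bulge, or on pairing of the 3′ part of the miRNA, often beside a seed match. A crosslinked peak shows where Argonaute was attached and not that the mRNA was repressed.

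The mature sequences below, from RefSeq, are shown to place the matches that recur in the results. In the first line of miR-342-3p and in miR-342-5p the capitals mark the seed (bases 2 to 8), and in the second line of miR-342-3p they mark bases 15 to 21.
miR-342-3p, seed: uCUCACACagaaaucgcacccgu
miR-342-3p, bases 15 to 21: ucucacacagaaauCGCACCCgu
miR-342-5p, seed: aGGGGUGCuaucugugauuga
Targets pair with these sequences in the opposite direction. The letters GUGUGA of a target face bases 3 to 8 of miR-342-3p, a match called the offset 6mer, and the letters GGUGC face bases 16 to 20. The letters GGUGC also stand in miR-342-5p itself, at bases 4 to 8, since the strands of the miR-342 hairpin pair with each other there.

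Many of the highest seedless 3′UTR peaks held one of these short complements close to the summit. The segments of 29 nt below come from the 25 highest peaks and from AURKB, on GRCh37 (hg19) and written as RNA on the strand of the gene, and the capitals mark 1 stretch that is complementary to miR-342-3p without a gap. In the first 7 it includes GGUGC. A segment can hold another complement in lower case, as that of NCOA4 does with 6 nt that face bases 5 to 10.
CD46, chr1:207967679-207967707, plus strand: agugccacuucauGGUGCGAagugaacac
YTHDF1, chr20:61827025-61827053, minus strand: ugaagcaugaaaauGGUGCccaugccuga
NCOA4, chr10:51590064-51590092, plus strand: auagggauaauuGGUGCauccuguguaaa
PXN, chr12:120649975-120650003, minus strand: uguccuccgcuGGUGCGggauggacagag
EHD2, chr19:48246127-48246155, plus strand: gaggggguucuuGGUGCuacagcccucuc
ATP6AP1, chrX:153664747-153664775, plus strand: caggugggcuGGGUGCGAUcgccggcugu
AURKB, chr17:8108149-8108177, minus strand: auucacuCGGGUGCGuguguuuguauguc
The next 5 include GUGUGA.
SFN, chr1:27190894-27190922, plus strand: augucugcuggGUGUGAccauguuuccuc
BCL2L1, chr20:30252295-30252323, minus strand: uuugaaauagUCUGUGUGAaggugaaagu
PHC2, chr1:33789863-33789891, minus strand: guguguaugaCUGUGUGAcugugugggag
SLC38A2, chr12:46753790-46753818, minus strand: accuacuggaaGUGUGAauuacuugacaa
SKP1, chr5:133493424-133493452, minus strand: aagagaaccagugGUGUGAagagaaguga
The last is complementary to bases 13 to 19 and holds neither of these.
NR2F1, chr5:92930224-92930252, plus strand: ucuuauaaugaGUGCGAUauauguugucg

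The highest seedless 3′UTR peak had a score of 1924 and lay 854 nt after the stop codon in the 2036 nt 3′UTR of CD46, which encodes a surface protein that protects cells from complement. Its complement of 7 nt faces bases 14 to 20, and its window also holds a 6mer of the seed region other than the offset 6mer. YTHDF1, a reader of N6-methyladenosine in mRNA, followed with 928, and NCOA4, the receptor for the autophagy of ferritin, with 807. NT5E, the surface enzyme that makes adenosine from AMP, had 733, and SFN, the 14-3-3 sigma protein, had 732. PNRC2, a factor of mRNA decapping, had 721. The other peaks above 500 lay in NR2F1 (668) and EPHA4 (618), which encode a nuclear receptor and an ephrin receptor, and in DUSP6 (572), FKBP1A (567), PXN (553) and BCL2L1 (545). DUSP6 is a phosphatase of ERK, FKBP1A binds FK506, PXN is the focal adhesion protein paxillin, and BCL2L1 encodes the survival factor BCL-XL.

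From rank 13 to 25, the scores ran from 446 in FOXN3 to 265 in GNAS. They included the Polycomb gene PHC2 (445), the amino acid transporter SLC38A2 (422) and SKP1 (384), a part of SCF ubiquitin ligases. Others were PLCXD2 (341), a further peak of FKBP1A (338), the endocytic ATPase gene EHD2 (323), C1orf226 (319), the proton pump accessory gene ATP6AP1 (291), PTMA (282) and the endosomal tether gene EEA1 (279). Of the 25 highest peaks, 12 held GGUGC in the window, 6 held the offset 6mer, and 7 held neither GGUGC nor any 6mer of the seed region. These shares of 48%, 24% and 28% describe 25 peaks, with Wilson intervals of 30.0 to 66.5%, 11.5 to 43.4% and 14.3 to 47.6%. The 2 peaks of FKBP1A and the peaks of SKP1 and GNAS also lay in a coding exon of another transcript.

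**Figure D1:**
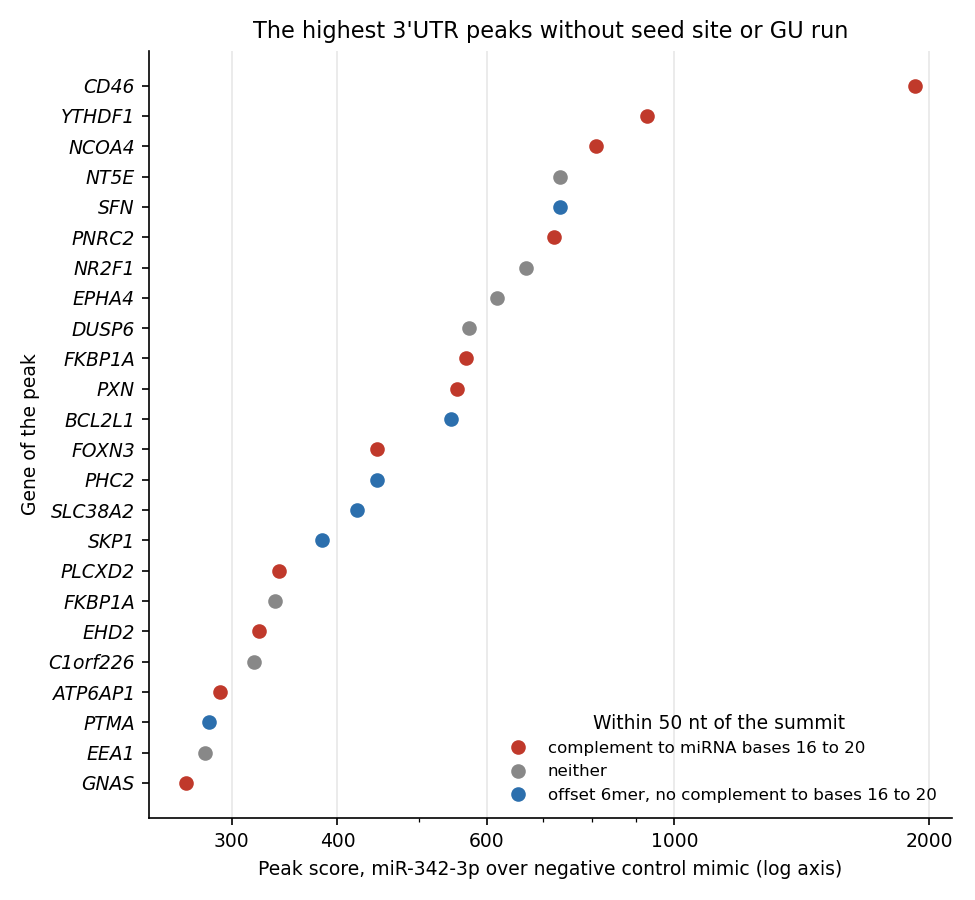
Scores of 24 of the 25 highest seedless 3′UTR peaks on a log axis, 1 point per peak, coloured by whether the 101 nt window holds GGUGC, the offset 6mer without GGUGC, or neither. CD46 (1924) stands apart from YTHDF1 (928) and NCOA4 (807), and all 3 hold GGUGC.

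A few of these peaks had a sequence that occurs more than once in the genome. For 13 of the 702 peaks, the 51 nt around the summit had another exact copy, and reads from the copies cannot be told apart. PNRC2 (721), FOXN3 (446) and PTMA (282) were among them. The listed gene of such a peak is therefore uncertain.

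Seedless 3′UTR peaks had lower scores than 3′UTR peaks with a seed site. Their median score was 23 (quartiles 13 and 48), against 33 (18.5 and 64) for 3′UTR peaks with a seed site, 33 for those with a GU run and 23 for coding exon peaks without a seed site or GU run. A score above 50 was found for 165 of 702 seedless 3′UTR peaks (23.5%, CI 20.52 to 26.78%), against 24.1% of all miR-342-3p peaks. Among 3′UTR peaks with a seed site it was found for 94 of 275 (34.2%). The difference was -10.7 percentage points (CI -17.2 to -4.40), and the odds ratio was 0.592 (p = 9.3e-04 and adjusted p = 0.00278 over 3 comparisons, each by a two-sided Fisher's exact test). Against 3′UTR peaks with a GU run the difference was -7.14 percentage points (CI -14.7 to -0.148) and did not pass the test (exact test, adjusted p = 0.0847). Against the 1587 coding exon peaks without a seed site or GU run it was 0.253 percentage points (CI -3.42 to 4.10, exact test, adjusted p = 0.915). Scores above 100 were found for 73 seedless 3′UTR peaks (10.4%), against 10.8% of all miR-342-3p peaks. Peaks of the different kinds also differed in width, with a median of 67 nt for seedless 3′UTR peaks and 78 nt for 3′UTR peaks with a seed site, and the part of width in the scores was not tested.

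**Figure D2:**
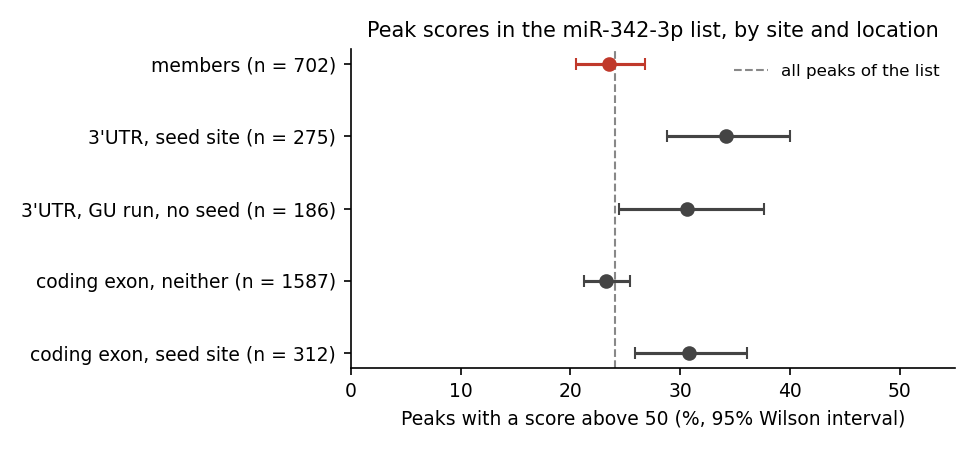
Share of miR-342-3p peaks with a score above 50 (%), for seedless 3′UTR peaks (called members on the axis) and 4 other kinds of peak, with 95% Wilson intervals that cover counting error only. The dashed line is the share of all peaks of the list (24.1%), which lies inside the interval of the seedless 3′UTR peaks and below that of 3′UTR peaks with a seed site.

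Parts of the seed match recurred around the summits. Each window was compared with a flank window of the same length, 150 nt away in the same 3′UTR, which had to meet the same rule on seed sites and GU runs and to overlap no miR-342-3p peak. Such a flank was found for 633 peaks and not for 69. Of 9 kinds of partial match, 8 were more frequent around the summit at an adjusted p under 0.05 (88.9%) and none was less frequent. A 6mer of the seed region was present in 216 windows (34.1%) and 45 flanks (7.11%), a difference of 27.0 percentage points (two-sided exact McNemar test, adjusted p = 6.5e-32). Most of this came from the offset 6mer, which was in 171 windows (27.0%) and 18 flanks (2.84%, exact test, adjusted p = 6.8e-35). The 6mer of bases 2 to 7 was in 19 windows and 9 flanks and did not pass the test (exact test, adjusted p = 0.0755), and the 6mer of bases 1 to 6 was in 41 and 19 (adjusted p = 0.00688). By the rule, the 6mer of bases 2 to 7 could have neither G before it nor A after it. That of bases 1 to 6 could not have U before it, and the offset 6mer could not have G after it. The rule thus limits the kinds unequally, in windows and flanks alike, and its part in their differing shares was not tested.

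Imperfect seed matches were also more frequent than in flanks. A 7mer with 1 mismatch was in 290 windows (45.8%) and 87 flanks (13.7%, exact test, adjusted p = 4.4e-33), one with 1 bulged target base in 69 and 20 (adjusted p = 4.1e-08), and one with 1 G:U wobble in 21 and 6 (adjusted p = 0.00390). These kinds overlap, since an offset 6mer followed by A, C or U is also a 7mer with 1 mismatch. Short GU runs of 6 to 9 nt, below the length that the rule set aside, were in 246 windows (38.9%) and 50 flanks (7.90%, exact test, adjusted p = 1.1e-36). This kind overlaps the offset 6mer too, since a U before the offset 6mer makes a GU run of at least 6 nt. A complement of 7 nt to bases 9 to 23 was in 40 windows (6.32%) and 19 flanks (3.00%, exact test, adjusted p = 0.00726).

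Runs just on either side of the limit had these scores. The 21 seedless 3′UTR peaks with a GU run of 9 nt had a median score of 23, with NT5E (733) as the highest, and the 11 peaks that a run of 10 nt set aside had a median of 31 and a highest score of 562.

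A search over all words of 6 nt, which did not use the sequence of the miRNA, returned a second kind of match. Of 4096 words, 42 were more frequent in windows than in flanks (1.03%) and 7 less frequent (0.171%). Of the 42, 40 held GUG, 11 held a run of 5 alternating G and U, and 6 held GGUGC. The word with the lowest p was UGUGUG, in 226 windows (35.7%) and 38 flanks (6.003%, exact McNemar test, adjusted p = 3.6e-35). Next came the offset 6mer, and then UGGUGC, which was in 117 windows (18.5%) and 23 flanks (3.63%, exact test, adjusted p = 2.7e-15). All 7 less frequent words lacked G.

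GGUGC was more frequent in windows than in flanks whichever base followed it. It was followed by A in 59 windows and 6 flanks (exact McNemar test, adjusted p = 3.3e-10), by C in 60 and 17 (adjusted p = 2.3e-05), by G, which continues the complement to miR-342-3p, in 41 and 3 (adjusted p = 1.3e-07), and by U in 54 and 17 (adjusted p = 9.8e-04). Before GGUGC, U was found in 117 windows and 23 flanks and G, which continues the complement, in 58 and 10 (exact test, adjusted p = 3.5e-07). A was found in 27 and 11 (exact test, adjusted p = 0.296) and C in 3 and 3. No test compared these bases with each other.

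GGUGC was present in 207 of the 702 windows (29.5%, CI 26.2 to 33.0%). It was in 25.6% of coding exon peaks without a seed site or GU run, in 8.36% of 3′UTR peaks with a seed site and in 8.60% of those with a GU run. In 484 miR-342-5p peaks in 3′UTRs without a seed site for either strand and without a GU run, the share was 8.47%. These letters were picked from the words above, so the shares are a description. The offset 6mer was in 185 of the 702 windows (26.4%), in 18.5% of the coding exon peaks and in 1.24% of the miR-342-5p peaks.

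The matches were mostly in different peaks. GGUGC without any 6mer of the seed region was in 172 windows (24.5%), a 6mer without GGUGC in 204 (29.1%) and both in 35 (4.99%), and 291 windows (41.5%) held neither. The median score was 30 with GGUGC alone, 24.5 with a 6mer alone, 22 with both and 21 with neither. Scores above 50 were found for 55 peaks with GGUGC alone (32.0%, CI 25.5 to 39.3%) and for 53 with neither (18.2%, CI 14.2 to 23.1%). These values were not tested.

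In steps of 1 base along miR-342-3p, the complement of 6 nt was more frequent in windows than in flanks at 9 of 18 steps (50%) and less frequent at 1 (5.56%). Each step is among the words of 6 nt searched above, in the same windows and flanks, here with adjustment over the 18 steps only. The steps thus show those results in the order of the miRNA and are no separate support. The 9 more frequent steps formed a group towards the seed and one towards the 3′ end. In the first, the complement to bases 3 to 8 was in 27.0% of windows and 2.84% of flanks, that to bases 4 to 9 in 35.7% and 6.003%, that to bases 5 to 10 in 16.3% and 4.90%, and that to bases 6 to 11 in 12.6% and 4.42%. The step of bases 1 to 6 also passed. The rule limits the steps within the seed unequally, as it does the 6mers above. In the second, the shares were 2.37% and 0.158% for bases 13 to 18, 4.27% and 0.316% for bases 14 to 19, 6.48% and 0.474% for bases 15 to 20 (exact test, adjusted p = 1.8e-09), and 9.16% and 1.58% for bases 16 to 21 (adjusted p = 4.3e-09). Between them, the complement to bases 8 to 13 was less frequent in windows (5.06%) than in flanks (9.48%, exact test, adjusted p = 0.00597). Against the 484 miR-342-5p 3′UTR peaks, 8 of the 18 steps were more frequent in seedless miR-342-3p peaks and 0 less frequent (two-sided Fisher's exact tests, adjusted p under 0.05). The coding exon peaks without a seed site or GU run were not tested. Their shares were 22.8% for bases 4 to 9 and 4.79% for bases 16 to 21, against 34.2% and 9.40% of all 702 seedless 3′UTR peaks. For bases 14 to 19 and 15 to 20 they were 6.49% and 7.56%, against 4.42% and 6.70%.

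**Figure D3:**
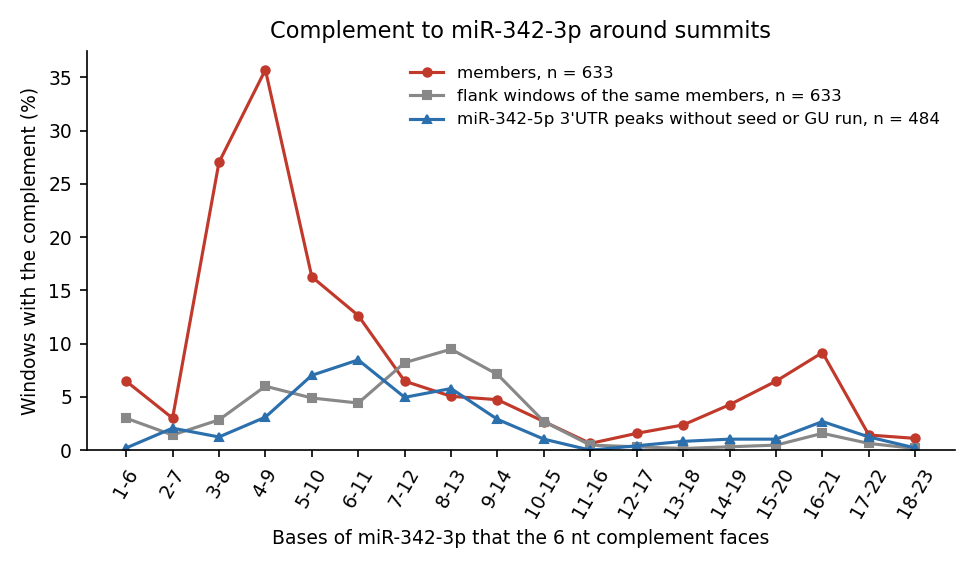
Share of windows (%) that hold the complement of 6 nt to each stretch of miR-342-3p, for 633 seedless 3′UTR peaks (members), their flank windows, and 484 miR-342-5p 3′UTR peaks without seed sites or GU runs. The seedless peaks rise to 35.7% at bases 4 to 9 and again to 9.16% at bases 16 to 21, where the flanks are at 6.003% and 1.58%.

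Both matches lay close to the summit. Of 343 occurrences of the offset 6mer within 200 nt of the 702 summits, 173 were within 20 nt (50.4%), where an even spread would put 10%. Of 439 occurrences of GGUGC, 187 were within 20 nt (42.6%). In the windows, both had a median position of 3 nt after the summit. In the miR-342-5p peaks, 9.09% of 44 and 8.14% of 221 occurrences were within 20 nt.

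**Figure D4:**
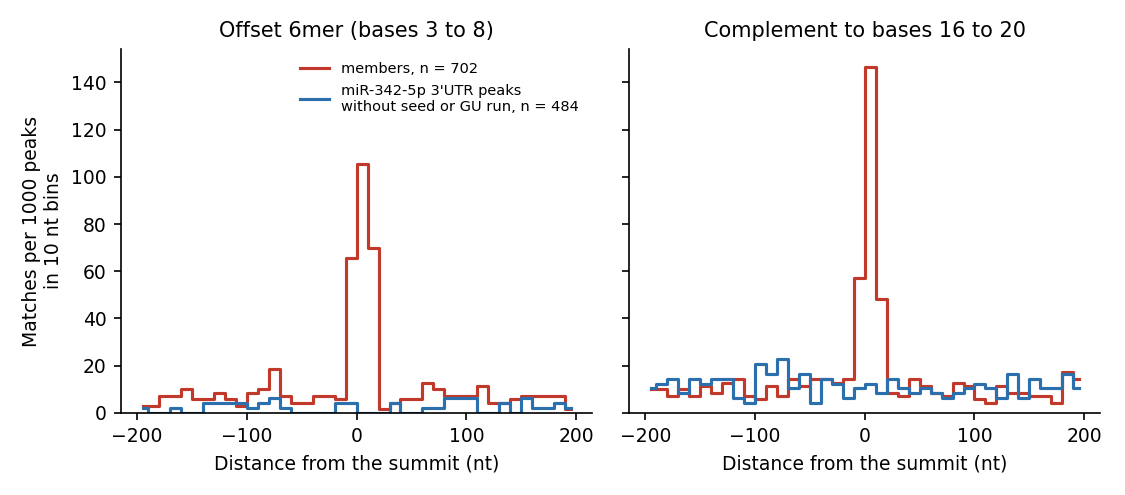
Occurrences of the offset 6mer (left) and of GGUGC, the complement to bases 16 to 20 (right), scaled to the same number of peaks, by distance from the summit in bins of 10 nt, for 702 seedless miR-342-3p 3′UTR peaks (members) and 484 miR-342-5p 3′UTR peaks without seed sites or GU runs. Only the miR-342-3p peaks have a maximum at the summit, for both matches.

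A duplex of miR-342-3p with the window was predicted to be more stable at the summit than in the flank. The median minimum free energy was -14.5 kcal/mol in windows and -11.0 kcal/mol in flanks, and it was lower in the window for 496 of 633 peaks and higher for 134 (two-sided exact sign test, p = 9.3e-50). These are the windows and flanks in which complements to miR-342-3p differed above, so the energies are no separate support. With miR-342-5p in place of miR-342-3p, a comparison added after the data were seen, the medians were -13.2 and -13.5 kcal/mol, and the energy was lower in the window for 305 peaks and higher for 317 (exact sign test, p = 0.659). Windows had more G than flanks (mean 25.8% and 22.0%) and a higher GC content (median 45.5% and 41.6%). The miR-342-5p 3′UTR peaks had a median GC content of 58.4% and a median energy with miR-342-3p of -10.9 kcal/mol. Among the peaks named here, AURKB had the lowest energy (-24.7 kcal/mol), EIF4G2 had -23.6 and PHC2 had -22.7.

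**Figure D5:**
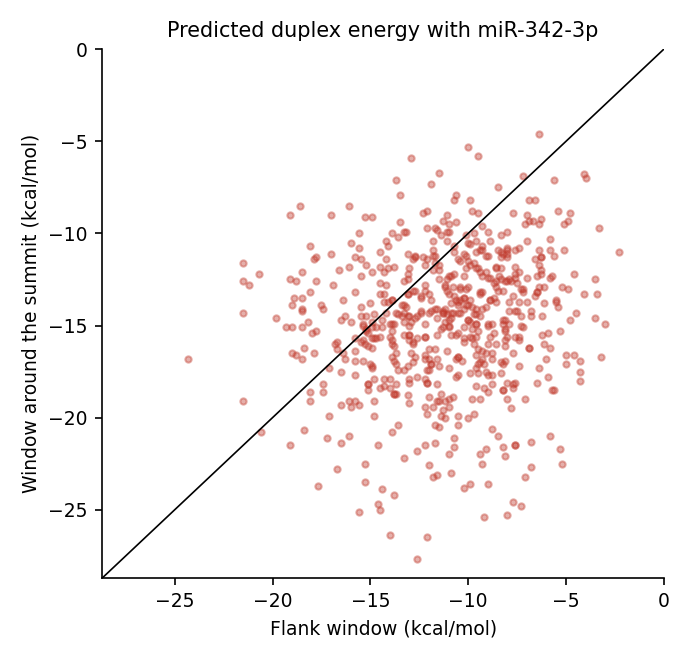
Predicted minimum free energy (kcal/mol) of the duplex with miR-342-3p for the window around each summit against that of its flank window, 1 point for each of 633 seedless 3′UTR peaks, with the line of equal values. Of the points, 496 lie below the line, where the window has the lower energy, and 134 above it.

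Sites of other miRNA families showed 1 difference of 17 (5.88%). The 7mers of miR-29a-3p, UGGUGCU and GGUGCUA, were in 33 windows (5.21%) and 10 flanks (1.58%, exact McNemar test, adjusted p = 0.0103). For scores above 50 the shares were 9.59% and 0.685% (exact McNemar test, adjusted p = 0.0166). Both 7mers contain GGUGC, and the segment of EHD2 shown above holds both of them. Which RNA, if any, paired with these letters was not tested. The seed match of miR-342-5p was in 5 windows and 14 flanks (exact test, adjusted p = 0.540). For miR-21-5p, let-7a-5p and the other families, the numbers of windows were between 2 and 19. Of 5 elements of 3′UTRs, none passed (0%), and 1 had an unadjusted p under 0.05. This was the AU-rich motif AUUUA, known for mRNA decay, in 86 windows and 120 flanks (exact McNemar test, p = 0.0107, adjusted p = 0.0534). The polyadenylation signal was in 73 windows and 93 flanks (exact test, adjusted p = 0.177).

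Seedless peaks lay throughout the annotated 3′UTR, most often in the first 25% of its length. Positions refer to the longest annotated 3′UTR that holds the peak, which need not be the one used in these cells. Stretches of 25% from the stop codon onwards held 248, 166, 148 and 140 peaks, and the median distance from the stop codon was 773.5 nt in 3′UTRs with a median length of 2339 nt. The share in the first 25% was 35.3%, against 38.2% for 3′UTR peaks with a seed site, a difference of -2.85 percentage points (CI -9.66 to 3.76, p = 0.416 by a two-sided Fisher's exact test). For scores above 50 it was 53 of 165 against 42 of 94 (-12.6 percentage points, Fisher's exact test, p = 0.0458).

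Some seedless peaks had a seed site a little farther away. A site lay 51 to 150 nt from the summit for 67 peaks (9.54%) and in bands of equal width that end 450 nt away for 30 (4.27%, two-sided exact McNemar test, p = 1.3e-04). Among the peaks with a score above 50 the numbers were 13 and 7 of 165 (exact McNemar test, p = 0.238). Unlike the flanks, these bands were read from the genome without limit to the 3′UTR, and the farther bands leave it more readily. The part of this in the difference was not tested. A 3′UTR peak with a seed site lay within 200 nt of 58 seedless peaks (8.26%). By gene, 69 of the 574 genes also had a 3′UTR peak with a seed site, 30 one with a GU run and 91 a coding exon peak, and 400 (69.7%) had no 3′UTR or coding exon peak of another kind in the miR-342-3p list. EPHA4, DUSP6 and BCL2L1 were among the 69.

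Few seedless peaks overlapped a peak of the other strand. Of 702, 10 overlapped a miR-342-5p peak by at least 1 nt (1.42%), against 6 of 275 3′UTR peaks with a seed site (2.18%), a difference of -0.757 percentage points (CI -3.34 to 0.908, p = 0.407 by a two-sided Fisher's exact test). The negative control libraries are shared by the lists. The 5 highest of the 10 were ARHGAP23 (score 32 as a miR-342-3p peak and 21 as a miR-342-5p peak), TMUB2 (32 and 26), RAD21 (23 and 6), FUT8 (22 and 20) and SLC1A5 (22 and 14). RAD21 is a subunit of cohesin, FUT8 adds core fucose to glycans and SLC1A5 imports glutamine. With only scores above 50, the numbers were 0 of 165, which allows a share of up to 1.82%, and 4 of 94 (Fisher's exact test, p = 0.0166).

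Most genes had a single seedless peak (474 of 574), 77 had 2 and 23 had 3 or more. CLCN7, a chloride and proton exchanger of lysosomes, had 5, with scores of 59, 9, 9, 5 and 5. FOXQ1, a forkhead factor, had 4 in a 3′UTR of 842 nt, with scores of 130, 68, 45 and 16, of which 1 held GGUGC and 2 the offset 6mer. HSDL1 had 4, with scores of 82, 70, 32 and 22, of which 3 held GGUGC, and the protease gene ADAM9 had 4 between 16 and 30. The 3 peaks of DUSP6 had scores of 572, 117 and 36 and held neither GGUGC nor the offset 6mer. The 3 of NT5E had 733, 207 and 25, of which 1 held the offset 6mer. Others with 3 were FKBP1A, FOXN3, PHC2, GNAS, TM9SF3, CHAMP1, CSNK1A1, PAFAH1B2, LASP1, SIK1, COIL, KLF6, HIPK2, LRRC57, NCLN and CYB5R1. Their highest scores ran from 567 in FKBP1A to 11 in CYB5R1. PAFAH1B2, a subunit of a platelet-activating factor hydrolase, had scores of 145, 91 and 78, and LASP1, an actin-binding protein, had 136, 54 and 18.

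Gene lists were read against all 19276 protein-coding genes with an annotated 3′UTR, of which 574 (2.98%) had a seedless 3′UTR peak, with a median of 26 for the highest score of a gene. A 3′UTR or coding exon peak of any kind was found for 11.1% of all these genes and for 30% of the ERK feedback list. The share was 32% for RAS and MAPK signalling, 41.7% for cholesterol and fatty acid synthesis, 39.1% for translation factors and 34.6% for mitosis. The shares of seedless peaks below are not adjusted for this. The lists were chosen with earlier results of these data known, so these shares and their order are a description. Genes listed under ERK feedback, not all of which restrain ERK, had the highest share, with 5 of 20 (25%, CI 11.2 to 46.9%) and a median of 151. They were DUSP6 (572), IER3 (198), SPRED3 (151), DUSP10 (63) and SPRED2 (24). DUSP10 acts mainly on the stress kinases, and the SPRED proteins restrain RAF activation. The peaks of SPRED3, DUSP10 and SPRED2 held GGUGC, and those of DUSP6 and IER3 did not. In the list of RAS and MAPK signalling itself the share was 1 of 25 (4%), the gene being MAPK14 (155), which encodes p38 alpha.

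Genes of cholesterol and fatty acid synthesis had 4 of 24 (16.7%, CI 6.68 to 35.9%), with a median of 22.5, below the 26 of all genes. They included the regulators SREBF1 (39) and SREBF2 (23) and the enzyme IDI1 (11). Translation factors had 3 of 23 (13.04%, CI 4.54 to 32.1%) and a median of 187, with the scaffold EIF4G1 (250), EIF5 (187) and EIF4G2 (95). The peak of EIF4G1 held both GGUGC and the offset 6mer. Mitosis genes had 3 of 26 (11.5%, CI 4.00 to 29.0%), namely PRC1 (159), which bundles microtubules of the spindle midzone, AURKB (45) and TACC1 (20).

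The other lists had 1 or 2 genes or none. Chromatin regulators had 2 of 27, of which TET3 (224), an oxidase of 5-methylcytosine, was the higher. Splicing and hnRNP genes had 2 of 29, HNRNPC (45) and SRSF2 (25). HMGB3 (72) was the 1 of 10 high mobility group genes and CD46 (1924) the 1 of 10 complement and cell surface regulators. TFDP1 (54), the partner of E2F factors, was the 1 of 52 genes of DNA replication and E2F (1.92%, CI 0.340 to 10.1%). The lists of RNA silencing and mRNA decay (DCP1A, 56), of extracellular matrix and integrins (ITGAV, 38) and of TGF-beta and EMT (SMAD5, 10) had 1 gene each, and that of RAB proteins and membrane traffic had 0 of 30, which allows a share of up to 10%. A 3′UTR or coding exon peak of any kind was found for 63.6% of the extracellular matrix list and 44.4% of chromatin regulators. The share was 34.5% for splicing and hnRNP genes, 26.9% for DNA replication and E2F and 26.7% for the RAB list. It was 24.3% for RNA silencing and mRNA decay, 15.4% for TGF-beta and EMT, and 20% each for high mobility group and complement genes. Among all genes it was 11.1%. The intervals are wide, and the shares were not tested against each other or against all genes.

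Of 10 further genes that were looked up by name, TACC1, AURKB, PAK2 and SP6 had a seedless 3′UTR peak. In AURKB, a mitotic kinase, it lay 16 nt after the stop codon in a 3′UTR of 138 nt and held the complement of 8 nt to bases 15 to 22 shown above. SP6, a zinc finger factor, had peaks of 48 and 29 in a 3′UTR of 2391 nt. In TACC1, a centrosomal protein, the score was 20, with a GU run of 8 nt in the window. In PAK2, a kinase downstream of CDC42, it was 17, with a longest complement of 4 nt within 20 nt of the summit. TACC1 and PAK2 also had a 3′UTR peak with a seed site. E2F1, CDC42, HMGB2, RRM2, DNMT1 and LIG1 had no seedless 3′UTR peak.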

How the data were processed

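The authors mapped filtered reads to hg19 with TopHat, kept alignments of sufficient quality (Samtools), and used MACS2 for peaks, and the submitters' processing notes name cutadapt 1.13, TopHat2 2.0.13, UMI-tools and MACS2 2.1.1.20160309. The authors deposited 1 list per miR-342 strand, each over the negative control, with a score for each peak as its only unit. The replicates are merged, and how libraries were scaled is not given in the sources used here. Depth per sample is thus unknown.

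Peaks were placed by midpoint on GRCh37, whose chromosome names and lengths fit all 8460 peaks, and on protein-coding transcripts of GENCODE release 44 mapped to GRCh37, with Python 3.11.15, numpy 2.4.6, scipy 1.17.1, pysam 0.24.0, samtools 1.23.1 and matplotlib 3.10.9. Starts in the lists count from 0 and are printed 1-based. Duplex energies are from ViennaRNA 2.7.2. Tests were two-sided Fisher's exact tests, and exact McNemar or sign tests paired by peak, with Benjamini-Hochberg adjustment over all words, families, elements, partial matches or steps. Differences of shares have Newcombe intervals and shares Wilson intervals, both at 95%. The search was tested on simulated data.

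The peaks and gene lists were chosen with earlier results of these data known, and the steps along miR-342-3p and the letters GGUGC after the words were seen. Named genes are those of the 25 highest peaks, of 3 or more peaks, of the peaks in gene lists, of the 5 highest peaks overlapping the other list, and of 10 genes looked up by name. MSN, EGFR and the other cell type markers are named as markers only. Some genes and 1 gene list that the rule names are not reported here.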

Additional observations from a re-analysis of the deposited data

How the results depend on the processing

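No paired analysis was possible because the lists merge the replicates, and leaving out a replicate was not possible for the same reason. Over the alternatives tried, 79 values kept their direction and their side of the threshold or stayed within 1.5 times. Of the others, 7 counts moved further, 2 differences changed sign, 2 came to pass the threshold and 1 no longer passed it. With only scores above 50, there were 165 seedless 3′UTR peaks and 13 more frequent words, the first 25% of the 3′UTR differed by -12.6 percentage points (Fisher's exact test, p = 0.0458), the overlap with miR-342-5p peaks differed by -4.26 percentage points (p = 0.0166), and the difference for a seed site just outside the window was 3.64 percentage points (exact McNemar test, p = 0.238). With peaks that hold a 6mer set aside too, 463 peaks were left. With overlap as midpoints within 25 nt, the difference was 0.127 percentage points (Fisher's exact test, p = 1), and for the last 25% in place of the first it was 0.670 (p = 0.858), both of the other sign and neither past the threshold. With windows of 25 nt on each side, 2 elements passed, AUUUA and the polyadenylation signal, both less frequent around the summit. Against the opposite strand in place of a flank, 204 words, 2 families and 2 elements passed. The families were miR-29a-3p, more frequent in windows, and miR-342-5p, less frequent, and the elements were the Pumilio motif and UUUUUU, both more frequent. The causes were not tested. The steps along miR-342-3p and their alternatives were added after seeing the data, and 8 or more steps were more frequent under each.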
